A study of Mus musculus with 6 samples.

Results

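Histone deacetylase genes were examined for CpG methylation in the dentate gyrus of mice kept in environmental enrichment (ENR) or in standard cages (STD). The 9 genes Hdac1, Hdac2, Hdac3, Hdac4, Hdac5, Hdac7, Hdac9, Hdac10 and Hdac11 were taken, of 25544 GENCODE M21 gene records with at least 1 covered site. A covered cytosine belonged to a gene when it lay between 1 kb upstream of the gene start and the gene end, read along the strand of the gene, and this stretch is called the gene window. The 9 windows held 519 of the 890041 covered sites. These sites belonged to 419 CpGs, since the cytosines on the plus and the minus strand of a CpG were counted as separate sites.

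The values came from reduced representation bisulfite sequencing (RRBS), which reads CpG-rich fragments cut at CCGG and gives for each cytosine the percentage of reads that were methylated. Genomic DNA was taken from micro-dissected dentate gyrus, the part of the hippocampus in which new neurons are formed in adult life, of female C57BL/6JRj mice aged 4.5 months. The STD group (n = 3 mice) lived in standard cages and the ENR group (n = 3 mice) in large enclosures with toys, from several weeks of age until sampling, and both had free access to food and water and no other treatment. Each library came from 1 mouse, so the dissected tissue holds neurons and glia of 1 animal in unknown shares. The table holds no expression values, and the tissue label was therefore not checked against the expression of marker genes.

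Histone deacetylases remove acetyl groups from lysines of histones and other proteins, which is linked to compact chromatin and low transcription. Class I enzymes (Hdac1, Hdac2, Hdac3) are nuclear and act in corepressor complexes, and Hdac2 is known as a brake on memory formation and synaptic plasticity. Class IIa enzymes (Hdac4, Hdac5, Hdac7, Hdac9) bind MEF2 transcription factors and move between nucleus and cytoplasm when neurons are active. Hdac10 is a class IIb enzyme that deacetylates polyamines, and Hdac11 is the class IV enzyme.

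Over all sites the library means lay between 21.3% and 24.3%, and the third library of each group was the lowest of its group. At sites with a mean between 20 and 80% the third libraries averaged 43.6% (STD) and 37.6% (ENR), whereas the other four lay between 50.9% and 52.3%. Over the 519 histone deacetylase sites the means were 13.9%, 13.7% and 12.6% in STD and 13.9%, 13.9% and 11.6% in ENR. Read numbers are not given beside the percentages, apart from the minimum of 10 reads set by the authors, so no counting interval could be attached to a value.

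Methylation differed strongly between the genes and much less between the mice. Hdac9 had the highest window mean (33.8% over the 6 libraries, 88 sites), followed by Hdac7 (21.9%, 72 sites), Hdac1 (13.3%, 50 sites), Hdac5 (9.50%, 98 sites) and Hdac4 (7.11%, 51 sites). Hdac10 (2.77%, 33 sites), Hdac2 (2.42%, 105 sites), Hdac3 (2.08%, 14 sites) and Hdac11 (1.01%, 8 sites) were nearly unmethylated. The library values of Hdac9, Hdac7 and Hdac1 did not overlap with each other, and neither did those of Hdac1 and Hdac5. Hdac5 and Hdac4 overlapped, and the 4 lowest genes overlapped among themselves. Hdac4 lay above Hdac10, Hdac2 and Hdac11 without overlap. It overlapped with Hdac3, which had 6.08% in the third ENR library, beside 5.50% in the third STD library of Hdac4.

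**Figure D1:**
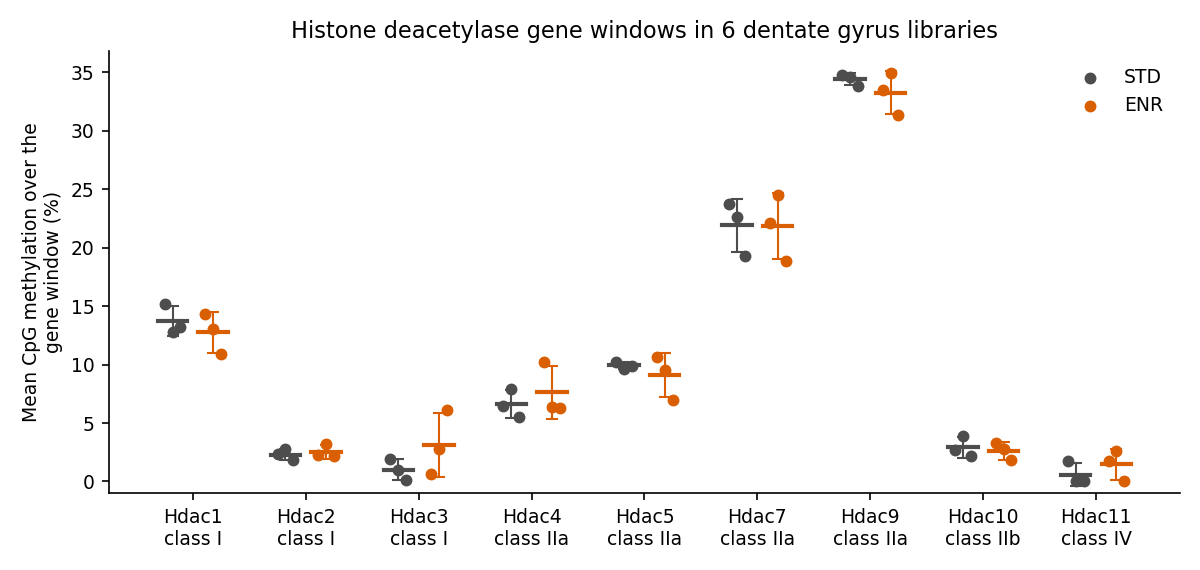
Mean CpG methylation over the gene window (y axis, percent) of each histone deacetylase gene (x axis, with its class) in the 3 STD and 3 ENR libraries. Points are libraries, thick bars are group means and thin bars are 1 SD, and the genes range from 1.01% (Hdac11) to 33.8% (Hdac9) while the groups overlap in every gene.

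The mean over class II genes was above that over class I genes for the whole window. Single genes did not follow this order, since Hdac1 of class I lay above Hdac5, Hdac4 and Hdac10 of class II, and the highest levels of class II were those of Hdac9 and Hdac7. With each gene counted once, class I averaged 6.48%, 5.50% and 5.07% in the STD libraries and 5.75%, 6.32% and 6.37% in the ENR libraries. Class II (Hdac4, Hdac5, Hdac7, Hdac9 and Hdac10) averaged 15.6%, 15.7% and 14.2% in STD and 16.0%, 15.6% and 13.1% in ENR. The difference was 9.10 ± 1.29 percentage points (mean ± SD, n = 6 libraries) and was above 0 in 6 of 6 libraries. It was 9.71 points without the third library of each group, 6.43 points with the median over genes in place of the mean and 11.8 points with all sites of a class pooled. The classes hold 3 and 5 genes, which are not replicates, and no test over genes was made.

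A promoter was defined as the part of the window within 1 kb of any annotated transcript start of the gene, and the rest of the window is the gene body. At promoters class I averaged 5.68% and class II 5.03%. The difference of -0.65 ± 0.75 points (SD, n = 6 libraries) was below 0 in 5 of 6 libraries and ranged from -1.88 to 0.350 points, so it was smaller than its spread over libraries. It was -0.049 points with all sites of a class pooled. Its direction depended on which transcript starts were counted. With starts of protein-coding transcripts only, class I averaged 1.90% and class II 5.98% (Hdac4, Hdac5, Hdac7 and Hdac10), and class II was higher in 6 of 6 libraries, by 4.08 ± 1.53 points (SD). Hdac1 then lost its inner clusters from the promoter, and Hdac7 had the highest promoter level of class II. With the gene start alone and at least 3 sites a gene, the difference was -0.0022 ± 1.28 points (SD), with Hdac5 and Hdac10 left in class II. No order of the classes at promoters can thus be given.

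The classes also differed in where RRBS covered them. Sites were termed island-like if G and C made up 50% or more of the surrounding 201 bases and CpGs reached 0.6 times the number expected from the base composition, or more. Of the class I sites 93.5% were island-like and 1 lay in a gene body. Of the class II sites 54.1% were island-like and 112 lay in gene bodies. Within island-like stretches class I averaged 2.81% and class II 1.63%. Class II was lower there in 6 of 6 libraries (class II minus class I, -2.27 to -0.057 points). The class I level was highest in Hdac1 (4.65%), beside 1.69% in Hdac2 and 2.08% in Hdac3. Of the 158 island-like class I sites 3 had means of 20 to 80%, all of them far inside Hdac1 (33.5%, 37.7% and 53.6%). Outside island-like stretches class I averaged 42.7% (Hdac1 and Hdac2 only, 11 sites) and class II 28.2% (157 sites). Class II was again lower in 6 of 6 libraries. The higher window level of class II thus went along with a larger share of sites outside islands. In neither kind of stretch was the mean of class II above that of class I. Since the class I means depended on a few sites of Hdac1 and Hdac2, no order of the classes within stretches can be given.

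Class I genes were covered almost entirely at their islands. Hdac2 (ENSMUSG00000019777.16, chr10:36974544-37001889, plus strand) had 104 of its 105 sites in 1 cluster around the gene start, a cluster being a run of sites at most 300 bases apart. This cluster averaged 1.37%, 2.03% and 1.59% in STD and 1.32%, 2.24% and 1.62% in ENR. The remaining site, in an intron 24.8 kb into the gene, averaged 77.2% and ranged from 27.3% to 100% between libraries. The stretch just upstream of the Hdac2 start is shown because it belongs to the cluster with the most sites of the 9 genes and holds sites described below (GRCm38, chr10:36974244-36974543, plus strand, 69.3% G and C). Capitals mark the 27 CpGs of its 34 that were measured on 1 or both strands.
Hdac2 upstream: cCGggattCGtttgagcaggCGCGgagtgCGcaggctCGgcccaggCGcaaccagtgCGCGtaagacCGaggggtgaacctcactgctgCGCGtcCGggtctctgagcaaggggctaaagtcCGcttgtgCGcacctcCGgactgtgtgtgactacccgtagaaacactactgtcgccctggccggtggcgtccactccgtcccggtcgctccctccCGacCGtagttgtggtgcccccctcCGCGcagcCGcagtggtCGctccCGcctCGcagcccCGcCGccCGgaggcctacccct
Its 40 measured sites averaged between 0% and 12.3%.

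Hdac1 (ENSMUSG00000028800.15, chr4:129516104-129542713, minus strand) combined an unmethylated island with methylated sites far inside the gene. Its 40 sites within 1 kb of the gene start averaged 1.15%, 0.882% and 2.82% in STD and 1.56%, 2.77% and 2.40% in ENR. The other 10 sites lay 20.3 to 24.6 kb into the gene. A cluster of 7 of them, across a coding exon and an intron, averaged 64.8%, 53.5% and 41.3% in STD and 60.3%, 46.0% and 28.9% in ENR, with the third library lowest in both groups. A cluster of 3 sites in a coding exon averaged 87.1%, 76.9% and 86.7% in STD and 77.3%, 73.2% and 82.1% in ENR. Both clusters count as promoter because shorter non-coding transcripts start nearby, so the promoter mean of class I includes them. The coding stretch is shown as the most methylated sequence of class I (GRCm38, chr4:129522411-129522470, plus strand, opposite to the gene).
Hdac1 coding exon: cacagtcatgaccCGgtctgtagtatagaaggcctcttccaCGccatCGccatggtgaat
Capitals mark its 3 CpGs, which averaged from 64.0% to 93.4%.

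Hdac3 (ENSMUSG00000024454.16, chr18:37935844-37955016, minus strand), the catalytic partner of the NCoR corepressors, had 14 island-like sites at its start, of which 7 also lay in the neighbouring gene Rell2. Its window mean was 1.91%, 0.940% and 0.132% in STD and 0.649%, 2.75% and 6.08% in ENR. The ENR mean was 2.17 points above the STD mean, the largest difference between housing groups of the 9 genes. It fell to 0.275 points without the third library of each group, and the limma adjusted p over all gene windows was 1.00.

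Class IIa genes had unmethylated islands as well, but also long bodies with many methylated sites. In Hdac9 (ENSMUSG00000004698.10, chr12:34047580-34917095, minus strand), the longest of the genes at 869.5 kb, 37 promoter sites averaged 1.86%, 1.20% and 1.19% in STD and 0.887%, 1.66% and 2.35% in ENR. Its 51 body sites averaged 58.7%, 58.8% and 57.6% in STD and 57.1%, 59.1% and 52.5% in ENR. In Hdac5 (ENSMUSG00000008855.17, chr11:102194432-102230166, minus strand) the 74 promoter sites averaged 1.64% and the 24 body sites 33.8% over the 6 libraries. In Hdac4 (ENSMUSG00000026313.16, chr1:91928779-92195699, minus strand) the 38 promoter sites averaged 1.35% and the 13 body sites 23.96%. In Hdac7 (ENSMUSG00000022475.19, chr15:97792664-97844502, minus strand) the 48 promoter sites averaged 17.9% and the 24 body sites 29.9%. The higher promoter level of Hdac7 came with 9 sites near internal starts, which belong to clusters 37.8 and 36.4 kb into the gene with means of 92.5% and 76.6%.

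Body exceeded promoter methylation in all 4 of these genes and in every library. The difference was 55.8 ± 1.70 points for Hdac9 (mean ± SE, n = 6 libraries, limma adjusted p = 1.98e-08). It was 32.1 ± 1.83 points for Hdac5 (limma adjusted p = 7.2e-07) and 22.6 ± 1.89 points for Hdac4 (limma adjusted p = 8.1e-06). The smallest difference was 12.0 ± 1.20 points for Hdac7 (limma adjusted p = 2.44e-05). Of 8687 genes with at least 3 sites in each region the same test called 84.2% with the body above the promoter and 481 the other way, so a body above the promoter was the usual state of a covered gene. Over those genes the median difference was 39.3 points with quartiles of 12.8 and 67.3 points, so that Hdac7 lay just below the lower quartile and Hdac9 between the median and the upper quartile.

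**Figure D2:**
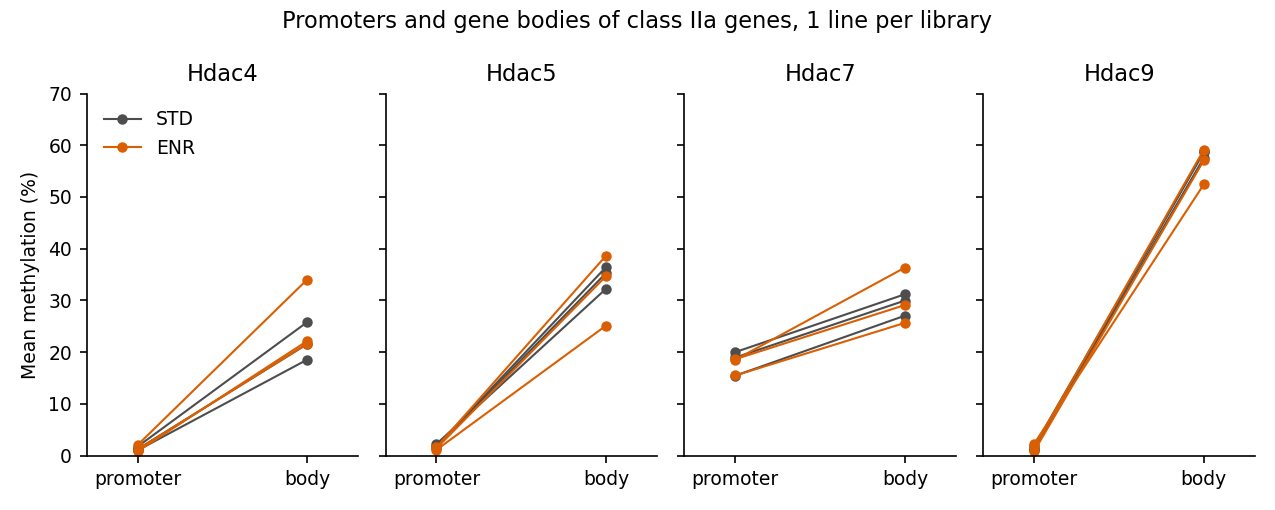
Mean methylation (y axis, percent) of promoter and gene body (x axis) in the 4 class IIa genes, with 1 line per library, STD in grey and ENR in orange. Every line rises, least in Hdac7 (12.0 points) and most in Hdac9 (55.8 points).

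These differences depended on which transcript starts were counted. When only the annotated gene start was used, Hdac5 kept a difference of 18.9 points, and Hdac4 and Hdac9 had no covered promoter site, since their islands lie 14.7 to 16.2 kb and 10.03 kb inside the gene. Hdac1 then gained a body of 10 sites and a difference of 56.6 points. When only starts of protein-coding transcripts were used, the differences were 32.1 points for Hdac5, 22.6 points for Hdac4 and 10.7 points for Hdac7, and Hdac9 had too few promoter sites.

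The bodies of class IIa genes were not methylated throughout. Of the 112 body sites 49 averaged under 20% and 23 over 80%. Outside island-like stretches 53.5% of class II sites were under 20%, beside 41.6% of all such sites in the table. This share is not one of bodies alone, since it includes Hdac10 and promoter sites, such as 20 at an internal start of Hdac5. In Hdac9 a cluster of 13 intronic sites, 202.6 kb from the gene start, averaged 2.60%, 4.41% and 3.56% in STD and 7.75%, 4.24% and 7.89% in ENR. Another intronic cluster of 6 sites, 166.1 kb from the start, averaged 97.6%, 89.6% and 94.2% in STD and 93.0%, 83.3% and 100% in ENR. The libraries of the 2 clusters did not overlap, and no site of either was island-like.

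A part of the low cluster and the whole high cluster are shown because they differ so much in methylation within 1 intronic region. Both are on the plus strand, opposite to the gene, with measured CpGs in capitals (GRCm38, chr12:34714640-34714779 and chr12:34750990-34751060).
Hdac9 low: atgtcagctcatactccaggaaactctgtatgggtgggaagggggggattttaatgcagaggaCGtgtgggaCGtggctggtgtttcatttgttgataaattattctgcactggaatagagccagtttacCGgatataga
Hdac9 high: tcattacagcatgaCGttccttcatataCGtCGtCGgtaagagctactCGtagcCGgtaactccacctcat
The low stretch holds 3 CpGs in 140 bases (observed to expected ratio 0.477) with site means of 3.94% to 6.37%. The high stretch holds 6 CpGs in 71 bases (ratio 1.56) with site means of 85.0% to 96.6%. Of the 2 stretches shown the methylated one held more CpGs. The low stretch is only a part of its cluster, and the whole low cluster holds 10 CpGs, beside 6 in the high cluster. No order by CpG content can thus be given. Neighbouring sites can share reads, and in the second ENR library all 6 sites of the high stretch had the same value of 83.3%.

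Hdac5 carried a similar low cluster of 12 sites 5.26 kb into the gene, which averaged 7.65% over the libraries, and an unmethylated internal start 11.5 kb into the gene with 20 sites at 3.29%. Further in, a cluster of 6 intronic sites at 14.5 kb averaged 42.8%, and clusters at 24.9 and 27.9 kb averaged 75.3% and 80.1%. Hdac7 had low clusters at 13.9 kb (6 sites, 7.55%) and 30.9 kb (7 sites, 6.40%) around an intermediate cluster at 22 kb (6 sites, 62.6%). Low and high clusters thus alternated along Hdac7, whereas in Hdac5 low clusters came first and higher ones further into the gene.

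Hdac10 (ENSMUSG00000062906.12, chr15:89123307-89128700, minus strand) and Hdac11 (ENSMUSG00000034245.10, chr6:91156665-91174692, plus strand) were covered at their starts alone. In Hdac10 29 sites of the first exon averaged 1.05%, and a cluster of 4 coding sites 0.735 kb into the gene averaged 17.8%, 18.4% and 11.8% in STD and 14.2%, 14.9% and 14.2% in ENR. The rise from start to coding sequence thus took place within 1 kb. In Hdac11 all 8 sites lay in the 5′ UTR and averaged 1.01%.

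**Figure D3:**
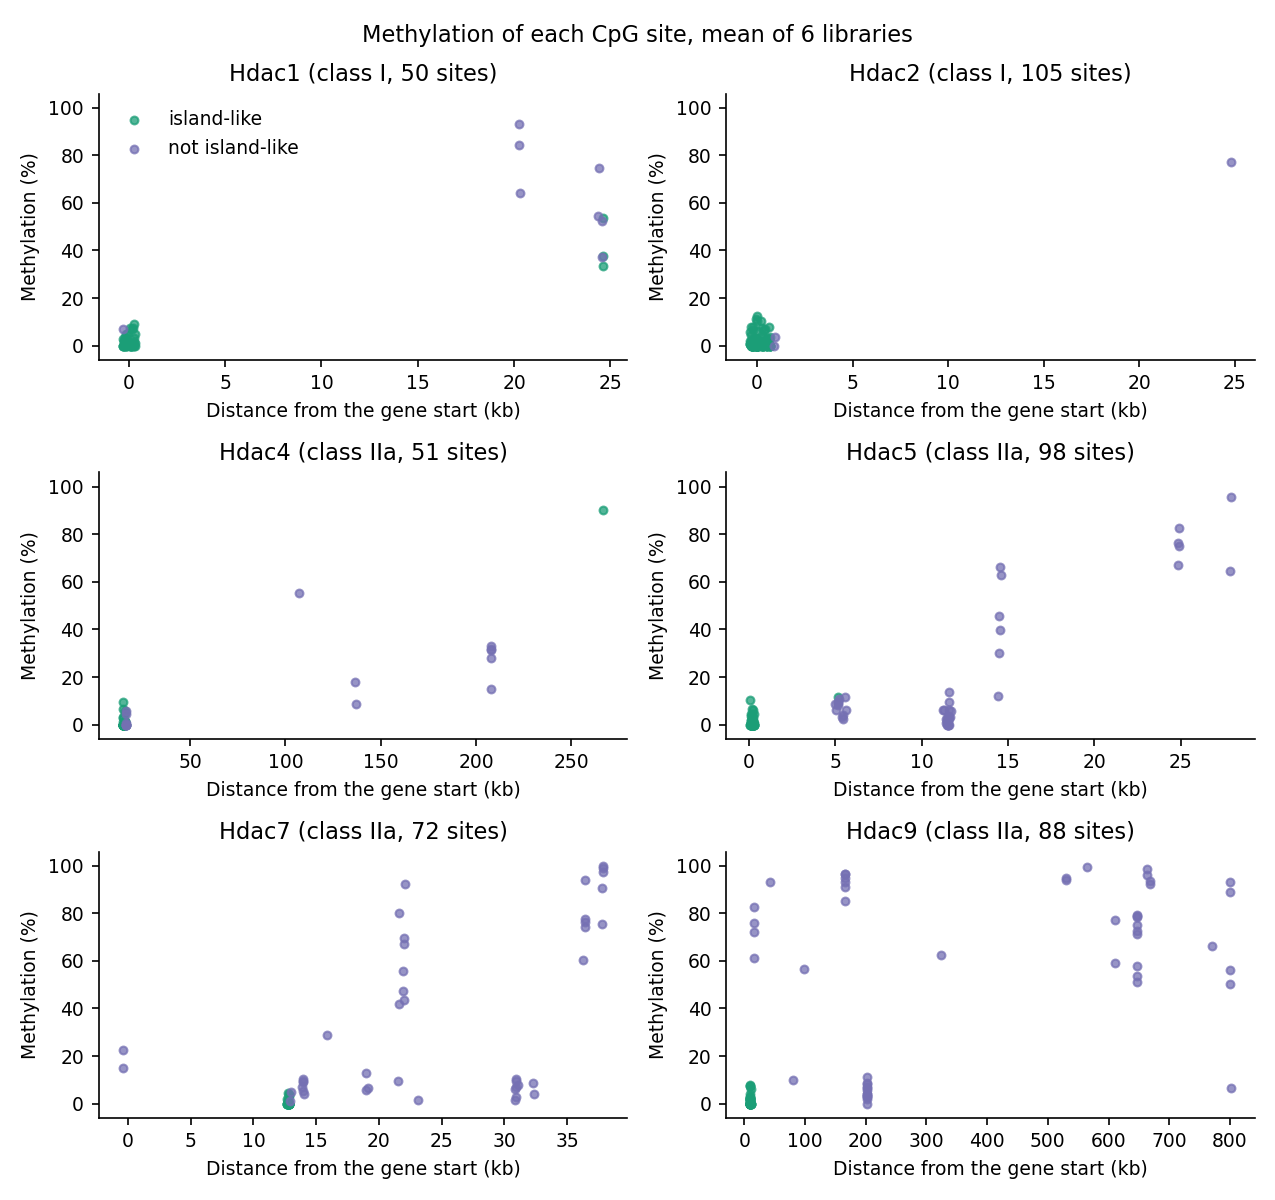
Methylation of each CpG site as the mean of 6 libraries (y axis, percent) against its distance from the gene start along the gene (x axis, kb) in 2 class I and 4 class IIa genes, coloured by whether the 201 bases around it are island-like. Island-like sites sit near 0% except for a few sites in Hdac1 and Hdac4, and class IIa bodies hold both low and high clusters, such as those of Hdac9 at 202.6 kb and 166.1 kb.

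The housing groups did not separate at the level of whole genes. The window mean was higher in ENR in 4 genes (Hdac2, Hdac3, Hdac4, Hdac11) and lower in 5 (Hdac1, Hdac5, Hdac7, Hdac9, Hdac10), with differences from -1.15 points (Hdac9) to 2.17 points (Hdac3). Without the third ENR library these were -0.20 points for Hdac9 and 0.705 points for Hdac3, and that of Hdac1 went from -1.01 to -0.072 points. In none of the 9 genes did the groups stop overlapping, beside 8.46% of all gene windows. The limma fit over 22934 windows called 0 windows at an adjusted p under 0.05 (886 at an unadjusted p under 0.05), so 0.0% of windows were called and none of the 9. The smallest two-sided exact permutation p of the 9 was 0.3, for Hdac3, and with 3 against 3 mice such a test cannot go below 0.1. The median absolute difference was 0.885 points over the 9 genes and 0.808 points over all windows.

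**Figure D4:**
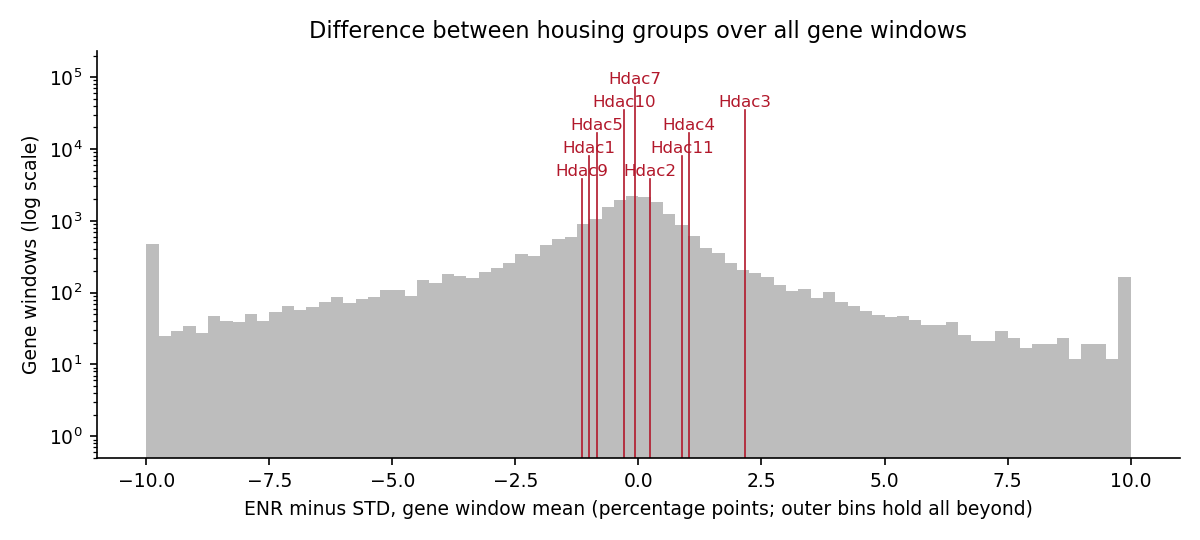
Difference of the ENR and STD group means (x axis, percentage points) over all 22934 gene windows tested (y axis, number of windows on a log scale), with the 9 histone deacetylase genes as red lines. The genes lie between -1.15 (Hdac9) and 2.17 points (Hdac3), inside the bulk of the windows.

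The values of single genes show how close the groups were. Hdac9 had 34.8%, 34.6% and 33.9% in STD and 33.5%, 35.0% and 31.4% in ENR. Hdac7 had 23.7%, 22.6% and 19.3% in STD and 22.1%, 24.5% and 18.9% in ENR, with the third library lowest in both. Hdac5 had 10.2%, 9.61% and 9.92% in STD and 10.7%, 9.57% and 7.0% in ENR. The lower ENR mean of Hdac5 rested on the third ENR library, since the difference of -0.85 points became 0.194 points without it. Hdac4 had 6.42%, 7.88% and 5.50% in STD and 10.2%, 6.39% and 6.27% in ENR, and its difference of 1.02 points became -0.27 points without the first ENR library.

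Hdac1 had 15.2%, 12.8% and 13.3% in STD and 14.3%, 13.05% and 10.9% in ENR. Hdac2 had 2.31%, 2.76% and 1.83% in STD and 2.26%, 3.17% and 2.14% in ENR. Hdac10 had 2.73%, 3.86% and 2.16% in STD and 3.33%, 2.74% and 1.80% in ENR, and Hdac11 had 1.71%, 0% and 0% in STD and 1.73%, 2.63% and 0% in ENR. In each of these genes at least 1 ENR library lay among the STD libraries.

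At promoters Hdac5, a class IIa enzyme that leaves the nucleus when neurons fire, was the 1 gene of 9 whose groups did not overlap, beside 9.44% of all promoters. Its 74 promoter sites averaged 1.75%, 2.26% and 1.69% in STD and 1.59%, 1.42% and 1.12% in ENR. No promoter of the 9 had an unadjusted limma p under 0.05, beside 4.43% of all promoters. The Hdac5 difference was -0.52 ± 0.37 points (limma SE), with a limma adjusted p of 0.998 and an exact permutation p of 0.1, the smallest that 3 against 3 mice allow. At the gene start alone its 54 sites, of which 17 also lay in the gene Mir8101, averaged 1.34%, 1.34% and 1.55% in STD and 0.758%, 0.363% and 0.808% in ENR. All of these levels are near 0, and the number of reads that separates them is unknown. At gene bodies, which could be measured in Hdac4, Hdac5, Hdac7 and Hdac9, none of the 4 genes separated, beside 7.59% of all bodies. Their ENR minus STD differences were 3.96, -1.83, 0.964 and -2.14 points, each smaller than its limma SE, and none had an unadjusted p under 0.05, beside 3.38% of all bodies. The Hdac9 body difference was -0.24 points without the third ENR library. The others changed sign with 1 library left out, to -0.083 points for Hdac4 without the first ENR library, 2.01 points for Hdac5 without the third ENR library and -2.02 points for Hdac7 without the second ENR library.

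The widest gap between the groups lay in a pair of CpGs upstream of Hdac7, an enzyme best known from vessel and lymphocyte development. The site 414 bases upstream of the gene start (chr15:97844916) was methylated at 42.6%, 40% and 50% in STD and at 3.45%, 0% and 0% in ENR. The site 401 bases upstream (chr15:97844903) had 28.3%, 20.5% and 22.2% in STD and 12.5%, 7.14% and 0% in ENR. Every STD mouse lay above every ENR mouse at both sites. The differences were -43.0 ± 11.5 points (limma SE) and -17.1 points, and the limma adjusted p of the first was 0.852. The pair averaged 35.4%, 30.3% and 36.1% in STD and 7.97%, 3.57% and 0% in ENR, and its difference of -30.1 points was -27.1 points without the third library of each group.

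The pair is shown with its flanks as the sequence behind this difference (GRCm38, chr15:97844880-97844940, plus strand, opposite to the gene).
Hdac7 upstream: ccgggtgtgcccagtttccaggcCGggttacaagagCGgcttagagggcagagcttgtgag
Capitals mark the 2 measured CpGs of the 3 in these 61 bases. The observed to expected CpG ratio of 0.16 in the 201 bases around the first site is far below that of an island. Both sites were read on the plus strand only, so the opposite strand gives no second measurement. The unmethylated Hdac7 island lies at an internal start 12.8 kb into the gene and averaged 0.842% over 31 sites.

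**Figure D5:**
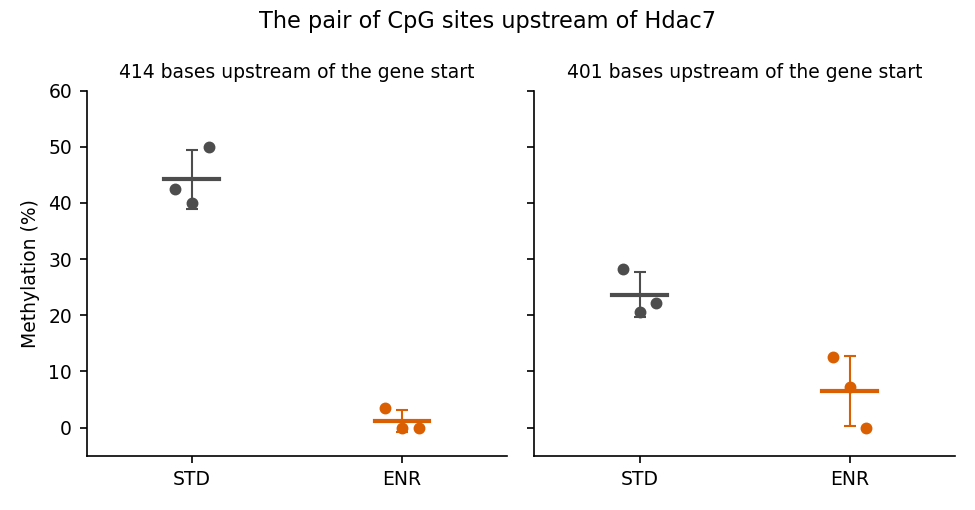
Methylation (y axis, percent) of the pair of CpG sites upstream of Hdac7 in STD and ENR libraries (x axis). Points are libraries, thick bars are means and thin bars are 1 SD, and the STD libraries lie at 40% to 50% and the ENR libraries at 0% to 3.45% at the outer site.

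Over all 519 sites the shares of large differences and of groups without overlap are given beside those in the whole table. A difference of group means over 25 points was seen at 5 sites (0.963%), of which 3 were lower and 2 higher in ENR, beside 1.94% of all sites. The number of such sites was 16 without the first ENR library and 4 without the third STD library. Groups that did not overlap were seen at 16 sites (3.08%), beside 3.99% of all sites. At 8 of the 519 sites the ENR libraries all lay below the STD libraries, beside 2.34% of all sites. Both held at 2 sites, both in Hdac7, beside 0.81% of all sites. Of the 318 sites whose value varied between libraries 11 (3.46%) had an unadjusted limma p under 0.05, beside 2.68% of all sites tested. The remaining 201 had the same value in all libraries and could not be tested. At an adjusted p under 0.05 the limma fit called 0 of 615152 sites (0.0%), and 16498 had an unadjusted p under 0.05. This fit also made no call at single sites in simulated tables with known shifts, so its lack of calls does not bear on whether a site changed.

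Sites with an intermediate level carried the spread. At the 56 sites with a mean of 20 to 80% the median SD within groups was 20.5 points, beside 17.8 points over all sites of that level. It was 1.10 points at the 434 sites under 20% and 6.89 points at the 29 sites over 80%. All 5 sites that differed by over 25 points had an intermediate mean. They made up 8.93% of the sites of that level, beside 11.03% over all sites of that level, and 10.8% of the histone deacetylase sites were intermediate, beside 14.6% of all sites.

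The second Hdac7 site with both a gap and a large difference lay in a coding exon 36.4 kb into the gene (chr15:97808080). It was methylated at 78.8%, 73.5% and 33.8% in STD and at 85.3%, 87.8% and 100% in ENR. The difference of 29.0 points became 10.4 points without the third library of each group. A neighbouring site in the same exon (chr15:97808068) had 93.2%, 85.8% and 42.6% in STD and 69.2%, 95.2% and 60% in ENR, so its groups overlapped.

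In the other genes the site with the largest difference is given. In Hdac5 it lay in a coding exon (chr11:102205319) with 77.6%, 40.6% and 30.0% in STD and 65.5%, 89.2% and 100% in ENR, and its difference of 35.5 points was 18.3 points without the third library of each group. Another site of the same cluster (chr11:102205262) differed by -29.4 points, in the opposite direction, with overlapping groups, and the 4 sites of the cluster together by -7.10 points. In Hdac9 it was intronic (chr12:34818987) with 54.2%, 66.7% and 100% in STD and 40.5%, 78.3% and 0% in ENR, and its difference of -34.0 points was -1.02 points without the third library of each group. In Hdac1 it was intronic (chr4:129518125) with 78.4%, 66.7% and 50% in STD and 36.7%, 60% and 30% in ENR. The groups overlapped at all of these sites.

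In Hdac4, which shuttles with calcium signals in neurons, the largest difference was at an intronic site 208.0 kb into the gene (chr1:91987723). It had 16.7%, 20% and 19.0% in STD and 27.8%, 38.9% and 46.7% in ENR, so the groups did not overlap (limma adjusted p = 0.852). The other 4 sites of that cluster overlapped between groups. Hdac4 also held an intronic pair 136.7 kb into the gene that averaged 8.66%, 8.52% and 4.44% in STD and 20.2%, 14.8% and 23.6% in ENR. Only the site at chr1:92059010 separated on its own (15.6%, 17.0% and 0% in STD and 22.2%, 29.6% and 23.3% in ENR), whereas that at chr1:92058904 had 1.72%, 0% and 8.89% in STD and 18.2%, 0% and 23.8% in ENR. This pair is shown as a cluster whose mean separated, far from any annotated transcript start (GRCm38, chr1:92058890-92059024, plus strand, opposite to the gene, its 2 CpGs in capitals).
Hdac4 intronic pair: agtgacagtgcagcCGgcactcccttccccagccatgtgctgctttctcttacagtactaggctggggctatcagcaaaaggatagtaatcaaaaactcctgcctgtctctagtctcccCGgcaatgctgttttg
Of 52 clusters in the 9 genes, 3 did not overlap between groups, beside 8.24% of all clusters. They were this pair, the cluster at the Hdac5 start and the pair upstream of Hdac7. With libraries compared within each replicate number, 6 of the 52 clusters (11.5%) had ENR on the same side of STD in all 3 pairs, beside 22.2% of all clusters. ENR was lower in 5 of them, among which were both inner clusters of Hdac1, and lower throughout in 13.1% of all clusters.

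The Hdac2 island holds a direct check of single sites, because both strands of a CpG were measured. At the site 15 bases upstream of the start (chr10:36974529, plus strand) methylation was 12.2%, 30.0% and 16.2% in STD and 0%, 0% and 2.86% in ENR. The cytosine of the same CpG on the minus strand (chr10:36974530) had 2.78%, 0% and 18.8% in STD and 5.71%, 30.8% and 15.6% in ENR. At another CpG, 299 bases upstream, the plus strand (chr10:36974245) had 2.94%, 6.94% and 18.03% in STD and 0% in each ENR library. Its minus strand (chr10:36974246) had 0% in each STD library and 8.33%, 9.09% and 30.0% in ENR. The strands of these CpGs differed between groups in opposite directions. At a further CpG the minus strand (chr10:36974340) had 6.78%, 35.8% and 5.08% in STD and 0% in each ENR library, whereas the plus strand (chr10:36974339) had 3.85%, 9.09% and 7.14% in STD and 5.88%, 12.5% and 0% in ENR. Its strands differed in the same direction, by -15.9 and -0.57 points, and the groups overlapped on the plus strand. The CpGs other than the first were chosen after their values were seen. Over the 100 CpGs of the 9 genes read on both strands, the median difference between strands in the mean of 6 libraries was 0.848 points and the largest was 25.9 points, in Hdac7.

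In Hdac3, Hdac10 and Hdac11 the largest differences were 13.7, 12.0 and 5.49 points. That of Hdac3 (chr18:37955669) rested on 47.1% in the third ENR library, with at most 5.88% in any other. That of Hdac10 (chr15:89128518) rested on 36.1% in the first ENR library, with 0% in all others. In Hdac11 (chr6:91156805) the highest value was 10.7% and the groups overlapped.

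In 37 tiles of 1 kb with at least 3 sites, 2 did not overlap between groups, beside 8.86% of all tiles. The tile at the Hdac5 start (chr11:102229001-102230000) had 0.859%, 0.883% and 1.71% in STD and 0.208%, 0.357% and 0.128% in ENR. The tile with 19 of the 37 sites of the Hdac9 island (chr12:34906001-34907000) had 1.21%, 1.35% and 1.03% in STD and 1.42%, 2.44% and 2.99% in ENR. They differed in opposite directions by about 1 point, with a limma adjusted p of 1.00 each. The neighbouring tile with the other 18 sites of the Hdac9 island differed the other way, by -0.70 points, with overlapping groups. A single tile had an unadjusted limma p under 0.05, beside 3.98% of all tiles. It holds the low intronic cluster of Hdac9 described above, where ENR exceeded STD by 3.10 points with overlapping groups.

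Other genes of histone acetylation gave 0 called windows as well, all of them measured. Among 9 other deacetylases, 4 were higher and 5 lower in ENR, with a median difference of -0.16 points, beside -0.19 points over all windows. The largest differences among them were those of the X-linked Hdac8 (6.12 points, 7 sites) and Hdac6 (-4.37 points, 25 sites), both with overlapping groups. In this list 2 of 9 windows did not overlap between groups (8.46% of all windows) and 2 of 9 had an unadjusted limma p under 0.05 (3.86% of all windows). Named after their values were seen, Sirt5 had 13.51%, 14.05% and 13.04% in STD and 16.0%, 17.0% and 17.7% in ENR, and Sirt1 had 12.6%, 12.4% and 12.3% in STD and 11.9%, 11.3% and 11.1% in ENR. Sirt6 differed by 2.78 points at an unadjusted limma p under 0.05 with overlapping groups, and the limma adjusted p of all 3 was 1.00. Of 26 corepressor partners, which anchor class I enzymes to DNA-bound repressors, 13 were higher and 13 lower (median -0.07 points), and Tbl1x (-4.48) and Mta3 (-4.37) differed most. In 1 of the 26, Rcor2, the groups did not overlap and the unadjusted limma p was under 0.05. Named after its values were seen, it had 4.25%, 2.81% and 3.93% in STD and 2.40%, 2.34% and 2.56% in ENR. Of 9 histone acetyltransferases, the opposing enzymes, 5 were higher and 4 lower (median 0.0836 points), with Kat2b (0.973) and Kat6b (-0.84) differing most. Of the 4 genes of MEF2 factors, which class IIa enzymes bind, 1 was higher and 3 lower (median -0.60 points), with Mef2b (-1.08) and Mef2c (-0.64) differing most. Among the acetyltransferases and the MEF2 genes 0 windows did not overlap between groups and 0 had an unadjusted limma p under 0.05.

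Marker genes of the cell types in the tissue were compared in the same way, by their methylation. Of 4 granule neuron markers 1 was higher and 3 lower in ENR (median -0.30 points), and of 5 oligodendrocyte markers 2 were higher and 3 lower (median -0.05 points). Of 4 microglia markers 1 was higher and 3 lower (median -1.26 points). All 4 astrocyte markers were lower in ENR, by 2.60 to 5.35 points (median -3.37 points), and Aqp4 averaged 22.7% in STD and 17.3% in ENR with overlapping groups and a limma adjusted p of 1.00. Over all 22934 windows 13221 were lower in ENR, with a median difference of -0.19 points. Groups did not overlap in 1 of the granule neuron markers (Calb1), 1 of the astrocyte markers (Aldh1l1), 1 of the microglia markers (P2ry12) and 0 of the oligodendrocyte markers, beside 8.46% of all windows, and all 3 were lower in ENR. No marker gene was called, and whether the share of cell types has a part in the values of the histone deacetylase genes was not tested.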

How the data were processed

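RRBS libraries of 6 mice were analysed. Per the labels, reads were processed with Trim Galore 0.4.0, cutadapt 1.8.1, Bismark 0.16.1 and methylKit 1.5.2 on mm10, although the methods of the study name other releases of some tools. The authors kept cytosines with at least 10 reads and removed the most covered ones, and the deposited table gives the percent methylation of 890041 CpG sites in each library, without read numbers. The read-based test of the study could therefore not be run. Depth per site is unknown, shallow and deep sites weigh the same, and neighbouring sites can share reads.

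Sites were annotated with GENCODE M21 on GRCm38, where 20 of all positions and 0 of the 519 used here were not a CpG. Means over sites were taken per region with at least 3 sites. Groups were compared on percentages with limma 3.58.1 (R 4.3.3, variance trend, Benjamini-Hochberg over the whole table, threshold 0.05) and with two-sided exact permutation tests over 20 regroupings. Body minus promoter was tested with limma over the 6 libraries. Code was tested on simulated data. Tables were made with Python 3.11.15 and pandas 2.3.3. Replicate numbers come from the labels and the libraries from separate mice. Deviations from the group means correlated over gene windows at 0.157, 0.131 and 0.322 in the same-numbered pairs, and at 0.121 (STD 1, ENR 2) and 0.109 (STD 2, ENR 1) in pairs of unlike number. Pairs that cross replicate 3 with another number lay between -0.221 and -0.190. All 3 same-numbered pairs exceed 0.1, but only replicate 3 stands apart, and a fit with the number as a block is an alternative.

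All 9 genes are described. Sites were named when groups differed by over 25 points without overlap (at most 2 per gene, lowest p) or else as the largest difference of a gene, tiles when groups did not overlap, and in the lists the 2 largest differences. Genes and lists were chosen with earlier results of these data known. Alternatives covered scales, site and strand handling, promoter definitions and left-out libraries. Added after the data were seen were the protein-coding starts, the fits without the third libraries, single libraries left out for named sites, clusters and tiles, clusters compared within replicate numbers, and the class difference at promoters under other definitions and without Hdac7. Sequences were read from the GRCm38 genome.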

Additional observations from a re-analysis of the deposited data

How the results depend on the processing

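Calls between housing groups were 0 for windows, promoters and bodies under every alternative run. The 0 calls at sites say nothing of stability, since that fit made none in simulated tables either. With the replicate block the smallest limma adjusted p was 0.882 for sites, 0.880 for windows, 0.944 for promoters and 0.899 for bodies, and the block changed no call at windows, promoters and bodies. The smallest adjusted p moved more with libraries left out, from 0.939 to 0.0584 for windows and from 0.621 to 0.125 for promoters without ENR replicate 3, and to 0.101 for windows and 0.264 for promoters without STD replicate 2. Genes called with a body above the promoter numbered 7236 to 7287 with libraries left out, beside 7314.

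Beside the 5 sites that differed by over 25 points, 12 differed by over 20 and 1 by over 40, and the number over 25 was 4 to 16 with libraries left out (16 without ENR replicate 1, 12 without STD replicate 2 and 10 without STD replicate 1, ENR replicate 2 or ENR replicate 3). The window difference between classes was 11.8 points with sites pooled, 6.43 points with medians and 8.88 to 9.71 points with libraries left out. At promoters it was -0.85 to -0.33 points with libraries left out, -0.049 with sites pooled, -0.73 with medians and -1.06 with strands averaged, but 4.08 with starts of protein-coding transcripts, 5.66 at gene starts with any number of sites, -0.0022 at gene starts with at least 3 sites and -3.86 without Hdac7.

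With libraries left out, the ENR minus STD window difference changed sign in Hdac2 (-0.098 to 0.457 points), Hdac4 (-0.27 to 1.70), Hdac5 (-1.64 to 0.194), Hdac7 (-1.39 to 1.41) and Hdac10 (-0.68 to 0.178). So did promoters of Hdac4 (-0.33 to 0.279), Hdac7 (-1.93 to 0.448) and Hdac9 (-0.26 to 0.587), bodies of Hdac4 (-0.083 to 6.12), Hdac5 (-4.75 to 2.33) and Hdac7 (-2.02 to 3.32), and the Hdac3 site (-2.94 to 21.6). The Hdac9 window difference was 0.949 points with the median over sites. Windows of Hdac1 (-1.79 to -0.072), Hdac3 (0.275 to 3.42), Hdac9 (-2.0 to -0.20) and Hdac11 (0.296 to 1.61) and the Hdac9 body (-3.59 to -0.24) kept their sign. The cause was not tested. The 3 mice per group and the unknown depth limit all comparisons between groups.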
